A study of Mus musculus with 6 samples.

Results

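The distribution of acetylated histone H4 lysine 5 (H4K5ac) over genes was measured in mouse hippocampus by setting H4K5ac-ChIP libraries against input libraries, that is, against the same kind of sheared chromatin sequenced without an antibody step. Of the 6 libraries in the series, the 4 used here were chosen by assay alone: 1 H4K5ac-ChIP and 1 input library from fear-conditioned mice (FC), and 1 of each from context-only controls (CON). Both groups were C57/BL6 mice of 6 months. FC mice were shocked in the training context in repeated sessions and tested for memory before the hippocampus was taken, while CON mice were handled alike and placed in the same context without shock. The FC and CON libraries served as the 2 replicates of each side, so the spread between them holds training, animals and library preparation together, and p-values measure only the spread between these libraries. By the methods, 3 hippocampal samples per group were cross-linked one by one, and libraries were pooled after size selection and mixed for sequencing by barcode. Which samples each of the libraries analysed here holds is not given in the sources used here. The remaining IgG-IP libraries, made with a non-specific antibody, entered only as an alternative control.

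Acetylation of lysines in the tail of histone H4 neutralises their positive charge and provides a docking site for proteins that carry a bromodomain. Acetylated H4 tails are a common feature of open chromatin at promoters and along transcribed genes, and they are scarce over genes that a cell lineage keeps silent. Hippocampal tissue mixes pyramidal and granule neurons, interneurons, glia and vessels, so a weak signal over a gene acetylated in few cells cannot be told apart from a low level in all of them.

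After 1 read was kept per 5′ position and strand on chromosomes 1 to 19 and X, the FC and CON H4K5ac-ChIP libraries held 27036434 and 31822361 reads, and the FC and CON inputs held 39220928 and 30321925. Mitochondrial DNA, which carries no histones, made up 0.00546% and 0.00533% of the deposited reads of the H4K5ac-ChIP libraries and 0.132% and 0.298% of those of the inputs. For each of 22350 protein-coding genes, reads were counted over the gene body, from the transcription start site (TSS) to the transcription termination site (TTS), and over the promoter, taken as the 2 kb upstream of the TSS.

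The inputs did not share 1 GC bias, and the ratio to input had to be read with that in mind. In 1021530 tiles of 1 kb that lay at least 10 kb from any gene, reads of the FC input rose from 0.156 of the library mean at 24% GC to 1.75 at 50% GC. The CON input went from 0.418 to 1.04 over the same range and stayed within 0.941 and 1.06 between 33% and 52% GC. Both H4K5ac-ChIP libraries followed the steep course of the FC input. Each library was therefore divided by its own curve before ratios were formed. Curves of the H4K5ac-ChIP libraries may hold acetylation that itself follows GC content, and the division removes that as well. At 50% GC these curves stood at 1.86 in FC and 1.70 in CON, against 1.75 and 1.04 in the inputs. The division thus lowered ratios of GC-rich genes more in CON than in FC. Without GC correction the log2 ratio of gene bodies correlated with GC content in CON (Spearman's rho across genes 0.419) and hardly in FC (0.0453). With it both were close to 0 (-0.0860 and -0.0808), which the division aims at. The spread of the difference between the FC and CON ratios over gene bodies was 0.311 (SD, log2) with the correction and 0.44 without. The curve covers 24% to 59% GC and was held constant beyond, which touched 7.13% of promoters.

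**Figure D1:**
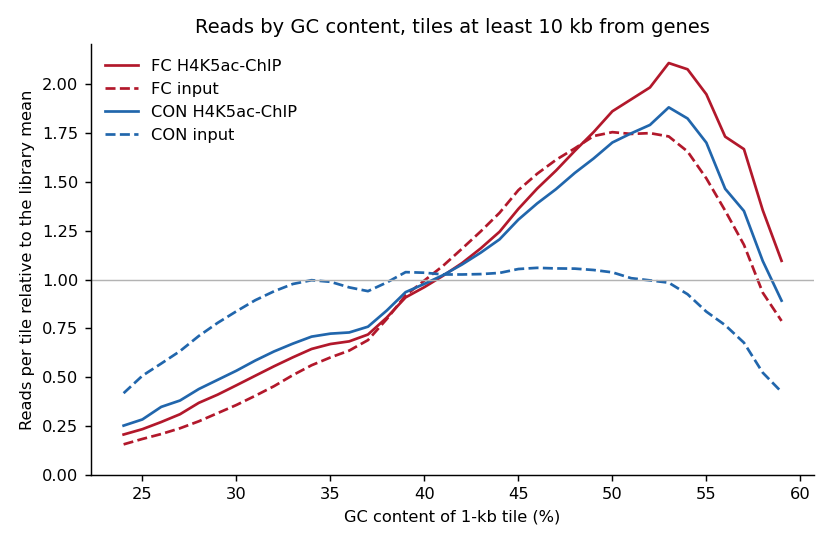
Mean reads per 1-kb tile, relative to each library's mean (y axis), by the GC content of the tile in percent (x axis), for tiles at least 10 kb from genes, 1 line per library (solid, H4K5ac-ChIP; dashed, input; red, FC; blue, CON). The CON input is nearly flat between 33% and 52% GC, while the other 3 libraries rise to between 1.75 and 2.11.

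H4K5ac was spread over a large share of genes and lay below input over another large share, and both groups of mice ranked genes much alike. Of 20084 gene bodies with a mean of at least 10 reads over the 4 libraries, 7560 were enriched over input, that is, had an adjusted p below 0.05 in limma's moderated test and the same sign in FC and CON. That is a background of 37.64% of gene bodies tested. Depleted gene bodies numbered 5950, or 29.63%. The ratio had the same sign in FC and CON at 17864 gene bodies, 88.9% of those tested, and Pearson's r between the 2 ratios across genes was 0.907, where genes are not independent replicates. Enrichment was modest in size: 195 gene bodies had at least 2-fold more H4K5ac-ChIP than input in both groups, whereas 1650 were at least 2-fold below input in both. Of the calls, 56.0% were enriched, and this share became 80.2% when libraries were scaled to the tiles far from genes, where H4K5ac-ChIP lay below input (log2 ratio -0.37 in FC and -0.51 in CON), a step that raised the median ratio of all gene bodies by 0.44 (log2). A log2 ratio of 0 thus means an equal share of the library and not absence of the mark. Gene groups are read below against the median of all gene bodies tested, 0.12 in FC and 0.05 in CON. The scaling to tiles far from genes moves every gene body alike. Under it 12969 of the 20084 were enriched and 3192 depleted, with a median of 0.53. Without GC correction 5782 were enriched and 3000 depleted, with a median of 0.34. Counts and medians of gene lists in these runs are to be read beside those values. Runs that left out 1 library, given below, asked for the adjusted p alone and not for the same sign in FC and CON.

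Among 20763 promoters tested, 6776 were enriched, a background of 32.63%, and 3357 were depleted, a background of 16.17%. At least 2-fold more H4K5ac-ChIP than input in both groups was found at 1522 promoters, compared with the 195 gene bodies. The median log2 ratio of all promoters tested was 0.29 in FC and 0.17 in CON, and Pearson's r between the groups across promoters was 0.802. A promoter held a median of 35.8 reads per library against 295 for a gene body, and the number of depleted promoters fell to 2110 without the CON input library. Enriched calls made up 66.9% of promoter calls, 89.0% with the scaling to tiles far from genes, 80.0% without GC correction and 51.8% when each library was centred on genes of the same GC content, which lowered the median of all promoters by 0.19 (log2).

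**Figure D2:**
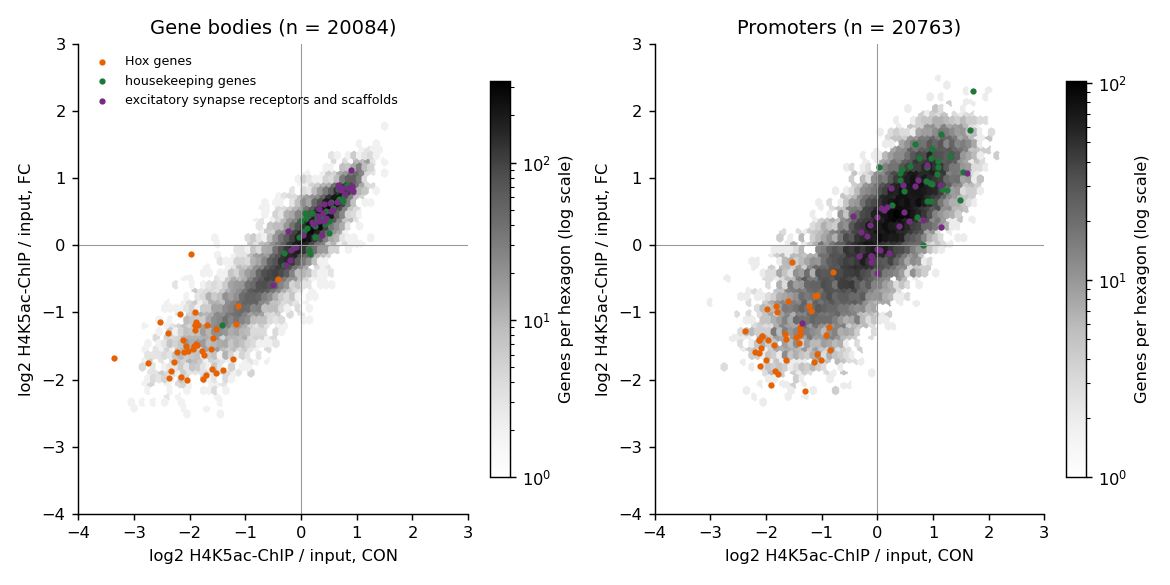
Log2 ratio of H4K5ac-ChIP to input in FC (y axis) against CON (x axis) for gene bodies (left) and promoters (right), with hexagons shaded by number of genes on a log scale and members of 3 gene lists as coloured points. Genes lie along the diagonal in both panels, Hox genes at its lower end and housekeeping promoters towards its upper end.

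The highest ranked gene body was Fundc1, which encodes a mitophagy receptor of the outer mitochondrial membrane (chrX:17133690-17149451, NCBIM37, the mm9 build). Densities are GC-corrected reads, scaled to library size as RPM, per kb. Fundc1 held 0.812 RPM per kb in FC H4K5ac-ChIP and 0.810 in CON H4K5ac-ChIP, against 0.187 and 0.237 in the inputs. The log2 ratio was 2.08 in FC and 1.74 in CON (SE 0.12, limma, adjusted p = 1.2e-56). Genes were ranked by the lower of their FC and CON ratios, so that a place near the top needs both groups. ChIP above input at the top, and below it at the bottom, follows from the ranking and adds no support. The same holds for adjusted p-values of genes so chosen. Adjusted p-values this small arise because limma pooled the spread over all gene bodies, and they order genes rather than give a literal probability.

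Ptn, Gpm6b and Omg were also among the 12 highest ranked gene bodies. Ptn, the heparin-binding growth factor pleiotrophin (chr6:36665663-36761361), had densities of 1.15 in both H4K5ac-ChIP libraries and 0.406 and 0.456 in the FC and CON inputs, with log2 ratios of 1.502 and 1.331. Gpm6b on chromosome X, a membrane protein of the proteolipid family found in neurons and glia, had 0.645 and 0.648 against 0.245 and 0.261 over a body of 150 kb (log2 1.40 and 1.31). Its input, like that of Fundc1 on the same chromosome, was below the median gene body (0.410 in FC and 0.438 in CON), and the ratio sets each gene against its own input. Omg, a myelin glycoprotein of oligodendrocytes and neurons, had 1.40 and 1.24 against 0.384 and 0.409 (log2 1.78 and 1.53). For these 3 genes no input library reached the level of a ChIP library, but they were chosen by that ratio.

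Several of the 12 highest gene bodies overlap other genes, whose reads they share. Omg and Evi2a both sit on the opposite strand within Nf1, the neurofibromin gene, whose own body was enriched at log2 1.08 in FC and 1.12 in CON. Gpr34, a lysophospholipid receptor of microglia, lies wholly within Cask, a scaffold kinase of the synapse, on the other strand, and its log2 ratios of 1.63 and 1.39 stand beside 1.07 and 1.10 for Cask. ChIP reads carry no strand of transcription, so signal over such a pair cannot be assigned to either gene. Gm11146, of 13.5 kb, shares between 9.87 and 9.95 kb with 2 longer annotated genes named 2810055G20Rik on the other strand, and Ap3m1, an adaptor subunit of endosomal sorting, shares 2.23 kb with Vcl. Sh2d6, an SH2 domain protein, Mmachc, an enzyme of cobalamin processing, and A130050O07Rik, a gene of no assigned role, overlapped no other protein-coding gene, and the lower of their FC and CON log2 ratios was 1.41, 1.34 and 1.44. Gm10621, a predicted gene of 2.11 kb, had 1.48 in FC and 1.59 in CON and shares 0.541 kb with Arih2.

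At the other end stood Psg28 and Psg25, pregnancy-specific glycoproteins of the placenta, which had log2 ratios of -2.59 and -2.47 in FC and -2.85 and -2.68 in CON. Psg28 held 0.0439 and 0.0349 RPM per kb in the FC and CON H4K5ac-ChIP libraries and 0.317 and 0.316 in the inputs. Pramef12, of the PRAME gene family, had log2 ratios of -2.27 in FC and -2.72 in CON. The predicted genes Gm13251 and Gm16387 and the gene 9030624G23Rik, whose input was itself only 0.066 and 0.0794, made up the rest of the 6 lowest. Inputs of Gm13251 (0.658 in FC and 0.720 in CON) and Gm16387 (0.849 and 0.897) stood above the median gene body (0.410 and 0.438). In all 6 both ChIP libraries lay below both inputs, but these genes were chosen by that ratio.

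**Figure D3:**
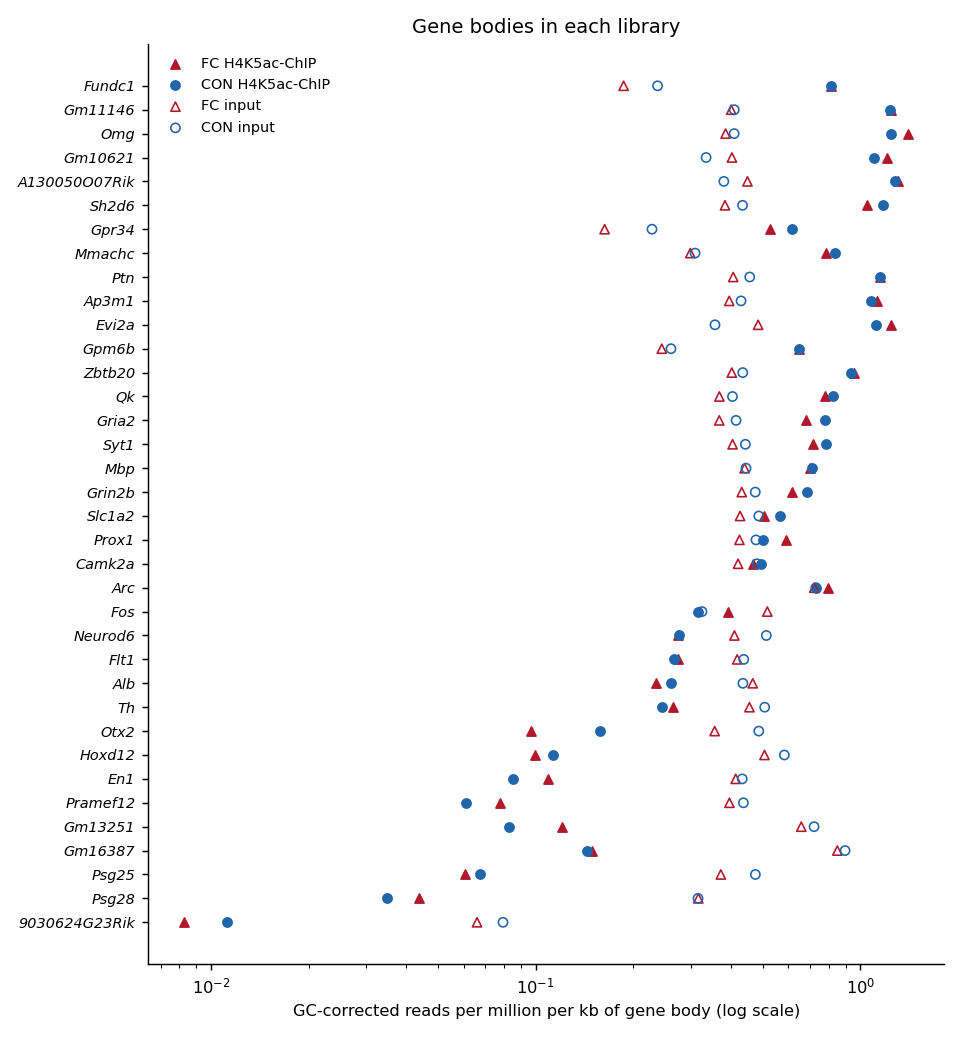
GC-corrected RPM per kb of gene body (x axis, log scale) for named genes (y axis) in each of the 4 libraries (filled, H4K5ac-ChIP; open, input; triangles, FC; circles, CON). The 12 highest ranked genes are at the top and the 6 lowest at the bottom, with markers of brain cells and of other tissues between them. ChIP values lie right of the inputs at the top of the plot and left of them at the bottom.

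Genes of the glutamatergic synapse were mostly enriched along their bodies. Of 30 receptors, scaffolds and related proteins, 23 were enriched (76.7%, beside 37.64% of all gene bodies) and 3 depleted, with medians of 0.50 in FC and 0.41 in CON. Of all gene bodies of 100 to 300 kb 59.3% were enriched, and of those beyond 300 kb 55.7%. Grik2, Gria2 and Grin2b (689, 118 and 444 kb) are of such lengths, and lists were not matched for length. Grik2, a kainate receptor subunit, had densities of 0.702 and 0.723 in FC and CON H4K5ac-ChIP and 0.322 and 0.387 in the inputs (log2 1.12 and 0.90). Gria2, the AMPA receptor subunit that sets calcium permeability, had 0.678 and 0.776 against 0.368 and 0.414 (log2 0.88 and 0.91, limma adjusted p = 3.1e-25). Grin2b, an NMDA receptor subunit, was enriched less, at log2 0.52 and 0.53. In each of these genes both ChIP libraries exceeded both inputs. The depleted members included Slc17a7, a vesicular glutamate transporter, at -0.59 and -0.50, and Shank1, a scaffold, at -0.30 and -0.27. Both calls were lost without GC correction, where FC and CON differed in sign and the means were 0.02 and 0.17, and Shank1 was positive under the scaling to tiles far from genes (0.16). Without the CON H4K5ac-ChIP library 13 bodies of this list were enriched.

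Among 25 genes of transmitter release 14 bodies were enriched (56%, beside 37.64% of all gene bodies) and 1, Unc13a, a priming factor of synaptic vesicles, was depleted (-0.21 and -0.19). Of all gene bodies of 100 to 300 kb 59.3% were enriched, and lists were not matched for length. Syt1, the calcium sensor of vesicle fusion, had 0.713 and 0.785 RPM per kb in the ChIP libraries against 0.404 and 0.443 in the inputs (log2 0.82 and 0.83). Syn2, a synapsin that tethers vesicles, followed at 0.73 and 0.68, and Snap25, a SNARE protein, at 0.34 and 0.16. Of 26 tested bodies of voltage-gated channels and calcium release channels, 20 were enriched (76.9%), among them Kcnq3, a subunit of the M current (0.95 and 0.85), and Itpr1, an intracellular calcium release channel (0.78 and 0.72). The depleted member was Kcnc2, a fast potassium channel of interneurons, at -0.32 and -0.36. Unc13a turned positive without GC correction (0.37), and Unc13a and Kcnc2 did so under the scaling to tiles far from genes (0.24 and 0.10). Without GC correction 11 bodies were enriched in each list, and under that scaling 24 of 25 and 25 of 26. Of all 20084 gene bodies 5782 and 12969 were enriched in these runs. Without the CON H4K5ac-ChIP library 8 presynaptic and 8 channel bodies were enriched, where 5789 of all 20084 gene bodies were, and without the FC H4K5ac-ChIP library 9 and 11.

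Of 21 tested genes of inhibitory transmission, 7 bodies were enriched and 9 depleted (33.3% and 42.9%, beside 37.64% and 29.63% of all gene bodies), and 11 and 5 under the scaling to tiles far from genes. Without GC correction 4 were enriched and 5 depleted. The median mean ratio was then 0.002, against -0.12 with it, where that of all gene bodies was 0.34 without the correction. Gabrb1, a subunit of the GABA-A receptor, which principal neurons carry, had the highest ratio of this list, log2 0.82 in FC and 0.79 in CON. Ranked by the higher of the FC and CON ratios, Calb2 and Lhx6 were the lowest members, although others were lower in a single group. Calb2, the calcium buffer calretinin, held 0.206 RPM per kb in each ChIP library and 0.442 and 0.434 in the inputs, a fall by 1.09 and by 1.06 on the log2 scale, and Lhx6, a transcription factor of interneurons derived from the ganglionic eminence, fell by 1.07 and by 1.44.

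Transcription factors of the forebrain gave 14 enriched and 7 depleted gene bodies of 26 tested. Zbtb20, a zinc finger factor needed for the identity of hippocampal pyramidal neurons, had the highest ratio of this list over its annotated body of 767 kb, 0.956 and 0.934 in the ChIP libraries against 0.402 and 0.434 in the inputs (log2 1.25 and 1.10, limma adjusted p = 2.5e-20). A second, short annotated gene of the same name lies inside it and shares its reads. It was called enriched too (1.22 and 0.58) and counts as another of the 14. Nr3c1, the glucocorticoid receptor, had log2 ratios of 1.09 and 0.93, and Prox1, the marker of dentate granule cells, 0.48 and 0.07. In contrast, the short genes Neurod6 and Neurod2, basic helix-loop-helix factors of pyramidal neurons, were depleted at -0.53 and -0.82 and at -0.37 and -0.58, as was Wfs1, a marker of CA1 neurons, at -0.26 and -0.20. Camk2a, the kinase of excitatory neurons, did not pass the test at 0.16 and 0.04. Of the 6 hippocampal neuron markers, then, only Zbtb20 and Prox1 were enriched, and Prox1 in CON stood near the median of all gene bodies, 0.05. Without GC correction Camk2a had 0.29 in FC and 0.77 in CON, where the medians of all gene bodies were 0.19 and 0.45. The calls of Neurod2 and Wfs1 were lost without GC correction, where FC and CON differed in sign and the means turned positive, as did that of Neurod2 against IgG-IP (0.10). Wfs1 was also positive under the scaling to tiles far from genes (0.21). Shares of the list were 53.8% enriched and 26.9% depleted, beside 37.64% and 29.63% of all gene bodies. Depleted bodies of the list numbered 1 without the FC H4K5ac-ChIP library, 3 without the CON input, 1 without GC correction and none under the scaling to tiles far from genes, where 17 were enriched.

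Immediate early genes, which neuronal activity induces rapidly, had few enriched bodies. Fos, Arc and Egr1 are under 5 kb, and of all gene bodies that short 14.5% were enriched and 36.6% depleted. Among 20 immediate early genes tested, 2 were enriched and 5 depleted (10% and 25%, beside 37.64% and 29.63% of all gene bodies), with medians of -0.05 in FC and -0.10 in CON. Their median mean ratio turned positive without GC correction (0.36), against IgG-IP (0.16) and under the scaling to tiles far from genes (0.27). Medians of all gene bodies in these runs were 0.34, 0.10 and 0.53. Under the scaling 11 bodies of the list were enriched, where 12969 of all 20084 were. Without the CON input, and without GC correction, none was depleted, and without the FC H4K5ac-ChIP library 3 were. At their promoters 4 of 20 were enriched (20%, beside 32.63% of all promoters, and 2 without the CON H4K5ac-ChIP library) and none depleted, with medians of 0.22 and 0.19. Without GC correction 10 of 20 promoters were enriched, where 8186 of all 20763 were. Nr4a1, a nuclear receptor, was enriched at 0.65 and 0.43, while Npas4, a neuronal activity factor, was depleted at -0.46 and -0.82. Arc, a cytoskeletal protein of the synapse, had 0.796 and 0.730 RPM per kb in ChIP and 0.721 and 0.729 in input, and it did not pass the test. Fos did not pass at -0.38 and -0.04, nor Egr1 at -0.21 and -0.20, and Bdnf, the growth factor, was weakly depleted at -0.32 and -0.08 and turned positive (0.24) under the scaling to tiles far from genes.

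Of 20 oligodendrocyte genes 10 bodies were enriched and 4 depleted (50% and 20%), and 8 and 1 without GC correction. Qk, an RNA-binding protein of myelination, was named as the highest of the list, with log2 ratios of 1.07 and 1.03. Mbp, myelin basic protein, had 0.67 and 0.68, with both ChIP libraries above both inputs. Pdgfra, the receptor that marks oligodendrocyte precursors, stood at the opposite end and fell by 1.10 and by 1.24. Astrocyte genes gave 7 enriched and 6 depleted of 20 (35% and 30%), shares near those of all gene bodies (37.64% and 29.63%), and none was depleted without GC correction. Under the scaling to tiles far from genes 13 astrocyte bodies were enriched and 1 depleted, and 15 and 1 of the oligodendrocyte list. Astrocyte values ran from S100b, a calcium-binding protein, at 0.83 and 0.90 to Mlc1, a membrane protein of astrocyte end-feet, at -0.70 and -0.69. Gfap did not pass (0.05 and 0.26). Depleted astrocyte bodies numbered 2 without the CON input and 3 without the FC H4K5ac-ChIP library, and depleted oligodendrocyte bodies 2 without either CON library.

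Of 24 microglial and immune genes 16 were depleted and 3 enriched (66.7% and 12.5%, beside 29.63% and 37.64% of all gene bodies), with medians of -0.46 and -0.79. These counts were 4 and 3 without GC correction and 9 and 8 under the scaling to tiles far from genes, and the median stayed below 0 in both (-0.40 and -0.16). Of all 20084 gene bodies 3000 were depleted and 5782 enriched without GC correction, and 3192 and 12969 under the scaling. Emr1, the F4/80 antigen, held 0.0993 and 0.0850 in the ChIP libraries against 0.262 and 0.302 in the inputs (log2 -1.40 and -1.82), and C1qc, a complement subunit, stood at -1.14 in both groups. P2ry12, the purinergic receptor of resting microglia, was an exception at 0.65 and 0.71, and its body overlaps that of another gene. Vascular genes were depleted in 7 and enriched in 3 of 15 (4 and 2 without GC correction, 3 and 6 under the scaling to tiles far from genes), with Flt1, a receptor of vascular endothelial growth factor, at -0.60 and -0.71. Their median turned positive under that scaling (0.01), where the median of all gene bodies was 0.53.

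Of 23 markers of other brain regions 13 bodies were depleted and 3 enriched (56.5% and 13%, beside 29.63% and 37.64% of all gene bodies), with medians of -0.60 and -0.82. These counts were 9 and 4 without GC correction and 12 and 7 under the scaling to tiles far from genes. En1, a homeobox factor of the midbrain and hindbrain, held 0.109 and 0.0852 in the ChIP libraries and 0.413 and 0.433 in the inputs (log2 -1.79 and -2.17). Th and Slc6a3, which make and take up dopamine, fell by 0.77 and 1.43 in FC and by 1.04 and 1.54 in CON. Hcrt, the hypothalamic peptide orexin, was enriched at 0.35 and 0.84 with between 24 and 84 reads per library. Choroid plexus genes gave 1 enriched and 3 depleted of 10 (10% and 30%), none and 1 without GC correction and 7 and 2 under the scaling to tiles far from genes, and Otx2, a homeobox factor of that epithelium, fell by 1.78 and by 1.56.

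Genes used by most cells were enriched at promoters above all. Of 30 housekeeping genes 26 promoters were enriched and none depleted, with medians of 1.09 and 0.96, while 15 of their bodies were enriched and 1 depleted, with medians of 0.36 and 0.25. Nuclear genes of the respiratory chain had 52 of 72 promoters and 39 of 72 bodies enriched, with none depleted in either. Enriched promoters of the respiratory chain numbered 36 when centred on genes of the same GC content. Enriched bodies numbered 20 of 72 without GC correction, where 5782 of all 20084 were, and 70 under the scaling to tiles far from genes, and those of housekeeping genes 10 and 24 of 30. Ndufb4, a subunit of complex I, had 0.749 and 0.762 RPM per kb over its body in ChIP against 0.414 and 0.409 in input (log2 0.84 and 0.88). Ribosomal protein genes had 47 of 80 promoters enriched (58.8%, beside 32.63% of all promoters). When centred on genes of the same GC content 24 were, where 4222 of all 20763 promoters were. Of their bodies 15 of 78 were enriched (19.2%, below the 37.64% of all gene bodies), 7 without the CON H4K5ac-ChIP or the FC input library and 56 under the scaling to tiles far from genes. Of all gene bodies under 5 kb 14.5% were enriched, and lists were not matched for length. Median ratios of these 3 lists stayed above 0 at promoters and over bodies in every alternative run, with ranges at promoters of 0.76 to 1.45, 0.62 to 1.26 and 0.42 to 1.17. Gapdh, of glycolysis, had a promoter at 0.66 and 0.90 and a body at 0.13 and -0.03, and Actb, cytoskeletal actin, had 0.42 and 0.71 against -0.07 and 0.15.

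An exception was Eef2, a translation elongation factor, whose body of 5.88 kb was depleted at -1.19 and -1.42. Its input was 0.945 and 1.10 RPM per kb, more than 2 times the median gene, and its ChIP level was 0.406 and 0.402, close to the median gene body (0.439 and 0.452). Brd3, a bromodomain protein that reads acetylated histones, was the depleted member among 31 acetyltransferases, deacetylases and bromodomain readers (-0.79 and -1.07) and likewise had a raised input of 0.756 and 0.926. Of the others in that list 21 bodies were enriched (67.7% of the list, beside 37.64% of all gene bodies), led by Myst4, an acetyltransferase (0.99 and 0.95), and Ncoa1, a coactivator (0.91 and 0.92). At promoters 21 of 31 were enriched (beside 32.63% of all promoters), or 13 without the CON H4K5ac-ChIP library, and 1 depleted.

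Zinc finger and histone genes are both present in many copies. Zfp genes had 214 of 332 promoters enriched (64.5%, beside 32.63% of all promoters) and 10 depleted (5 without the CON H4K5ac-ChIP library), with medians of 0.85 and 0.68. Of their 338 bodies 135 were enriched (39.9%, near the 37.64% of all gene bodies) and 60 depleted, against 78 and 25 without GC correction and 255 and 23 under the scaling to tiles far from genes. Zfp532 had the highest body (1.28 and 1.23) and was also among the 12 highest promoters, whereas Zfp936 and Zfp616 fell by 2.02 and 1.84 in FC and by 2.42 and 1.91 in CON. Replication-dependent histone genes had 32 of 61 promoters enriched (52.5%) and 9 of 16 tested bodies (56.2%). With no filter on reads 9 of their 67 bodies were enriched and 6 depleted, with a median of 0.06. Members of these families share sequence, and reads may have been placed on a copy other than their own.

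Hox genes, the transcription factors of the body axis, were depleted almost without exception. All 40 annotated Hox bodies were tested, 39 were depleted (97.5%, beside 29.63% of all gene bodies) and none enriched, with medians of -1.53 in FC and -1.90 in CON, and 39 of 40 promoters were depleted as well (beside 16.17% of all promoters). Hoxd11 held 0.109 and 0.0695 RPM per kb in FC and CON H4K5ac-ChIP and 0.467 and 0.408 in the inputs (log2 -1.98 and -2.37, limma adjusted p = 1.4e-26), and Hoxd12 stood at -2.002 and -2.055. Hoxd1 alone did not pass, at -0.51 and -0.42. Neighbouring Hox genes lie in 4 clusters, so their values are not independent.

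Sensory receptor families of the nose were depleted as well. Of 1087 olfactory receptor genes 591 bodies had the mean of 10 reads required, which a gene low in ChIP reaches mainly through its input, and 485 of these were depleted (82.1%, beside 29.63% of all gene bodies) and none enriched, with medians of -1.09 and -1.21. With no filter on reads, 671 of the 1087 were depleted and 2 enriched, where 5655 of all 22350 gene bodies were depleted. Vomeronasal receptors had 145 of 151 tested bodies depleted and none enriched, with medians of -1.34 and -1.71. With no filter, 204 of 323 were depleted and none enriched. Olfr122 was covered by 6 reads in each ChIP library and by 57 and 48 in the inputs, and Vmn2r58 by 32 and 31 against 197 and 285. Medians of both families stayed below 0 in every alternative run, among them one restricted to reads with a mapping score of at least 30 (-1.27 and -1.78). Near-identical copies in these families leave the placement of reads on single members uncertain.

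The skin, liver and pancreas, muscle and germ line lists hold genes of other organs. Depleted and enriched gene bodies made up 29.63% and 37.64% of all tested. Keratin genes gave 41 depleted and 3 enriched of 56 tested, liver and pancreas genes 19 and 1 of 24, muscle genes 12 and 3 of 23, and germ line genes 8 and 5 of 21, with no germ line body enriched without GC correction. With no filter on reads 48 of 90 keratin genes were depleted and 2 enriched. Without GC correction the depleted genes numbered 11 of 56 for keratins, 9 for liver and pancreas, 4 for muscle and 5 for germ line, and under the scaling to tiles far from genes 25, 12, 4 and 5. Under that scaling the enriched genes numbered 8, 4, 8 and 6, where 12969 of all 20084 gene bodies were enriched and 3192 depleted. Cyp3a11, a liver cytochrome, fell by 1.71 and by 2.50, Alb, serum albumin, by 0.98 and by 0.73, Ttn, the muscle protein titin, by 1.18 and by 1.25, and Dmrt1, a factor of the testis, by 1.52 and by 1.70. Exceptions included Krt10, a keratin of the epidermis, enriched at 1.303 and 1.13, and Casq1, calsequestrin of skeletal muscle, at 1.00 and 0.75. Median ratios of the muscle and germ line lists turned positive under the scaling to tiles far from genes (0.16 and 0.11), and that of the muscle list also without GC correction (0.05). Medians of all gene bodies in these runs were 0.53 and 0.34, above those of both lists. Clustered protocadherins, adhesion proteins of which single neurons use few, had 22 of 24 bodies depleted and none enriched, from Pcdhb8 (-1.87 and -2.12) to Pcdhgc5, which did not pass (0.13 and 0.03), and 14 bodies of the list were depleted without GC correction.

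**Figure D4:**
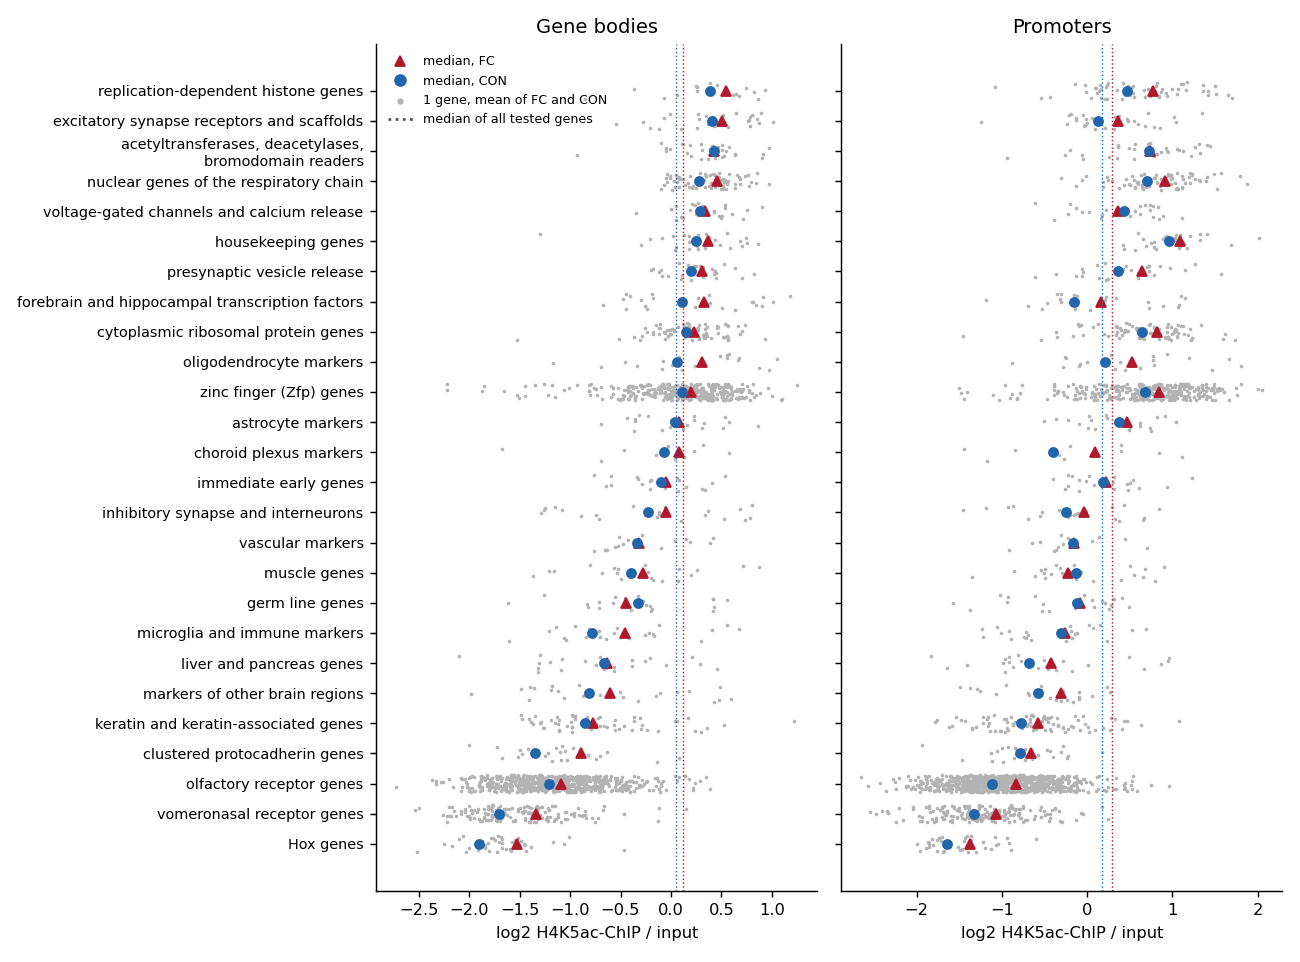
Log2 ratio of H4K5ac-ChIP to input (x axis) for 26 gene lists (y axis), over gene bodies (left) and promoters (right); grey points are single genes (mean of FC and CON), red triangles and blue circles list medians in FC and CON, and dotted lines the medians of all genes tested. Housekeeping, respiratory chain and ribosomal lists lie further right at promoters than over bodies, and Hox genes lie lowest in both panels.

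The highest ranked promoter was that of Fam172a on chromosome 13, with 1.97 and 2.12 GC-corrected RPM per kb in the FC and CON H4K5ac-ChIP libraries and 0.319 and 0.325 in the inputs (log2 2.45 and 2.53, SE 0.19, limma adjusted p = 7.4e-08). Nme1, a nucleoside diphosphate kinase, had 2.00 and 1.79 against 0.330 and 0.385 (log2 2.43 and 2.08). Gins3, a subunit of the helicase complex of DNA replication, had 1.26 and 1.48 against 0.264 and 0.288 (log2 2.06 and 2.18). In all 3 the lowest ChIP value was more than 3 times the highest input, but these promoters were chosen by that ratio.

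The other 9 of the 12 highest promoters belonged to Ttc3, Pot1a, Zfp532, Zfp273, Spg11, Hipk1, Polq, Acbd5 and Cdc16. Known roles among them are ubiquitin ligation (Ttc3), telomere capping (Pot1a), lysosomal function in motor neurons (Spg11), DNA repair (Polq), peroxisomal lipid handling (Acbd5) and the anaphase-promoting complex (Cdc16). Their log2 ratios ran from 1.80 to 2.18 in FC and from 1.83 to 2.08 in CON. Ttc3 shares its whole promoter window with the body of Pigp, and Spg11 shares 0.279 kb with Patl2. Only 1 depleted promoter, that of Ugt1a1, a glucuronosyltransferase of the liver, met both conditions for ranking, a mean of at least 50 reads and no input at 3 times its median density or more (log2 -2.05 and -1.61), and it lies within 8 longer genes of the same cluster. Its input of 0.956 in FC and 1.06 in CON stood above the promoter medians of 0.381 and 0.424. Reads numbered 98 and 67 in the inputs and 13 and 24 in the ChIP libraries.

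The 200 bases upstream of the TSS of 6 genes are given here from the NCBIM37 genome, 5′ to 3′ on the strand of the gene. They show the CpG content of promoters of high and of low ratio. Capitals mark CpG dinucleotides. The first 3 are the highest ranked promoters. Among promoters with a mean of at least 20 reads that lie over no other gene, leaving out 1 chromosome, Ndufb4 is the highest of the respiratory chain list, and Olfr649 and Krtap31-2 are the lowest of the olfactory receptor and keratin lists, a choice made after their values were seen. Olfr649 and Krtap31-2 hold too few reads to be ranked.
Fam172a, chr13:77847751-77847950, plus strand: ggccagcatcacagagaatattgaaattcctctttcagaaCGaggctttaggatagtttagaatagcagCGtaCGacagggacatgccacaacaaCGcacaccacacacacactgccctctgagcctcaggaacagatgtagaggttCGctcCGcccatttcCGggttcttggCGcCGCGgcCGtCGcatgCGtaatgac
Nme1, chr11:93829836-93830035, minus strand: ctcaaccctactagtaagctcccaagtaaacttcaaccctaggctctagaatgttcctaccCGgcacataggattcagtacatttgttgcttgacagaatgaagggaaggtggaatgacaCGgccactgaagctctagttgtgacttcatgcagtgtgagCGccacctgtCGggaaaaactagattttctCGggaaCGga
Gins3, chr8:98157259-98157458, plus strand: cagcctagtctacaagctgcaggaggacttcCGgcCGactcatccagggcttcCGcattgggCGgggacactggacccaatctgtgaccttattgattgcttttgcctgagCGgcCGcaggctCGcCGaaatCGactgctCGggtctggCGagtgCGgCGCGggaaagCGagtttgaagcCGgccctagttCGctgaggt
Ndufb4, chr16:37654540-37654739, minus strand: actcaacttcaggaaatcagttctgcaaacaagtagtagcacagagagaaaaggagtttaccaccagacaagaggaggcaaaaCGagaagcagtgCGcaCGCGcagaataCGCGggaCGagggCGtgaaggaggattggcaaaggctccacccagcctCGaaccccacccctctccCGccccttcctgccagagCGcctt
Olfr649, chr7:111344475-111344674, minus strand: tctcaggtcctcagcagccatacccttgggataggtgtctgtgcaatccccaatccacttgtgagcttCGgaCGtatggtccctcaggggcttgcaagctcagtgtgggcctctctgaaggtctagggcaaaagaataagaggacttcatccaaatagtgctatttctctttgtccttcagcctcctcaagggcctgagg
Krtap31-2, chr11:99797405-99797604, plus strand: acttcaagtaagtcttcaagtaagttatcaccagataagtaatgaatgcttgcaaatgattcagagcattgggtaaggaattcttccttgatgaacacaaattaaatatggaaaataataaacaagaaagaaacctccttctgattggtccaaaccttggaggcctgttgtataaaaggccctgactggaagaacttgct

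From Fam172a to Ndufb4 the windows held 13, 6, 17 and 11 CpGs. Olfr649 held 2 CpGs, and its promoter of 2 kb had 5 and 3 reads in the FC and CON H4K5ac-ChIP libraries against 52 and 25 in the inputs (log2 -2.23 and -2.25), and Krtap31-2 held none and had 5 and 14 against 29 and 41 (log2 -1.55 and -1.33).

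Across all 22344 such windows the median was 7 CpGs. Enriched promoters had a median of 12 and depleted ones of 2, and 1.73% of enriched against 25.1% of depleted windows had no CpG. Olfactory and vomeronasal receptor genes supplied 605 and 151 of the 3357 depleted promoters. Among all tested promoters of these families, 50.9% and 50.8% of windows had no CpG. Values for depleted promoters without these families were not computed, for CpGs or for the motifs that follow. The GC box GGGCGG, searched on both strands as were all motifs, was present in 49.8% of enriched, 15.3% of depleted and 38% of all windows. The ETS core CCGGAAG was present in 13.8%, 1.55% and 7.59%, and the core TGACG of the cAMP response element in 24.6%, 9.09% and 17.2%. These 3 motifs contain a CpG. Of those without one, TATAAA showed the opposite order with 4.86%, 20.8% and 10.1%, and CCAAT hardly varied with 31.0%, 30.1% and 30.6%. Among promoters of 46 to 50% GC, GGGCGG was present in 56.4% of enriched and 20.2% of depleted windows and TATAAA in 3.09% and 11.7%. That class is set on the 2-kb promoter, and the windows searched still differed. Enriched windows had a median GC of 61.5% and 14 CpGs, and depleted ones 52.2% and 3. A match describes the letters and not a bound site.

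Gene bodies were also enriched more often at higher promoter CpG content. Their reads leave out the gene's own 2-kb promoter but can hold the start of another annotated gene. With a promoter CpG ratio (observed over expected) below 0.2, 16.1% of 5421 gene bodies were enriched and 55.9% depleted. At 0.6 and above, 58.7% of 1657 were enriched and 11.5% depleted. Promoters themselves were enriched most often at an intermediate ratio of 0.4 to 0.6 (43.3%), and less at 0.6 and above (33.5%). Gene length went along with enrichment as well. Of gene bodies under 5 kb 14.5% were enriched, and of those of 50 to 100 kb 59.3%. The median ratio was -0.15 in FC and -0.29 in CON in the shortest class, 0.36 and 0.32 at 50 to 100 kb, and 0.32 and 0.24 beyond 300 kb. Longer bodies hold more reads, whose part in these shares was not tested. The part of olfactory and vomeronasal receptor genes in the lowest CpG class and the shortest length class was not tested either.

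Body and promoter calls went together without being the same. Of 19474 genes tested in both, 4434 were enriched in both, 3064 in the body with no promoter call, and 1992 in the promoter with no body call. Opposite calls were rare, with 246 genes enriched in the promoter and depleted in the body and 46 the reverse. Spearman's rho between body and promoter ratios across genes was 0.655 in FC and 0.641 in CON, where both values of a gene come from the same libraries. In the list of excitatory synapse genes 23 of 30 bodies (76.7%, beside 37.64% of all) and 9 of 29 promoters (31%, beside 32.63% of all) were enriched, the latter 4 without the CON and 5 without the FC H4K5ac-ChIP library. In the housekeeping list 15 of 30 bodies (50%) and 26 of 30 promoters (86.7%) were. The difference between body and promoter counts was not tested, and promoters hold fewer reads.

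Position along the gene was followed in 100-bp bins within 5 kb of the TSS, which were summed into windows of 0.5 to 3 kb, for genes of at least 5 kb with no other protein-coding gene in the 5 kb upstream. Over 11615 genes the log2 ratio was highest between 1 and 0.5 kb upstream of the TSS, at 0.65 in FC and 0.45 in CON, and fell to 0.19 and -0.11 in the first 0.5 kb of the gene. Between 2 and 5 kb downstream it was 0.21 and 0.15. The 48 housekeeping, ribosomal and respiratory genes that met these conditions reached 1.36 and 1.03 upstream and 0.35 and 0.31 at 2 to 5 kb. Neuronal genes (68, from the synaptic and channel lists) had 0.33 and 0.52 upstream and 0.28 and 0.27 at 2 to 5 kb. Olfactory and vomeronasal receptor genes lay between -0.72 and -1.73 in all windows compared in both groups.

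The dip just inside the TSS depended on the GC correction. Without it the first 0.5 kb of the gene stood at 0.42 in FC and 0.59 in CON, and the highest 100-bp bin began 500 bp upstream of the TSS in both groups instead of 700 bp in FC and 900 bp in CON. Around the TTS the ratio was flat in the same windows, within 0.01 and 0.10 in FC and within -0.03 and 0.03 in CON over 10364 genes. Summed over windows of 0.5 kb or more, neuronal and housekeeping genes stayed above 0 on both sides of the TTS, though single 100-bp bins went down to -0.42 and -0.13. The window 5 to 2 kb before the TTS held 0.34 in FC and 0.27 in CON for neuronal genes and 0.43 and 0.27 for housekeeping genes.

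**Figure D5:**
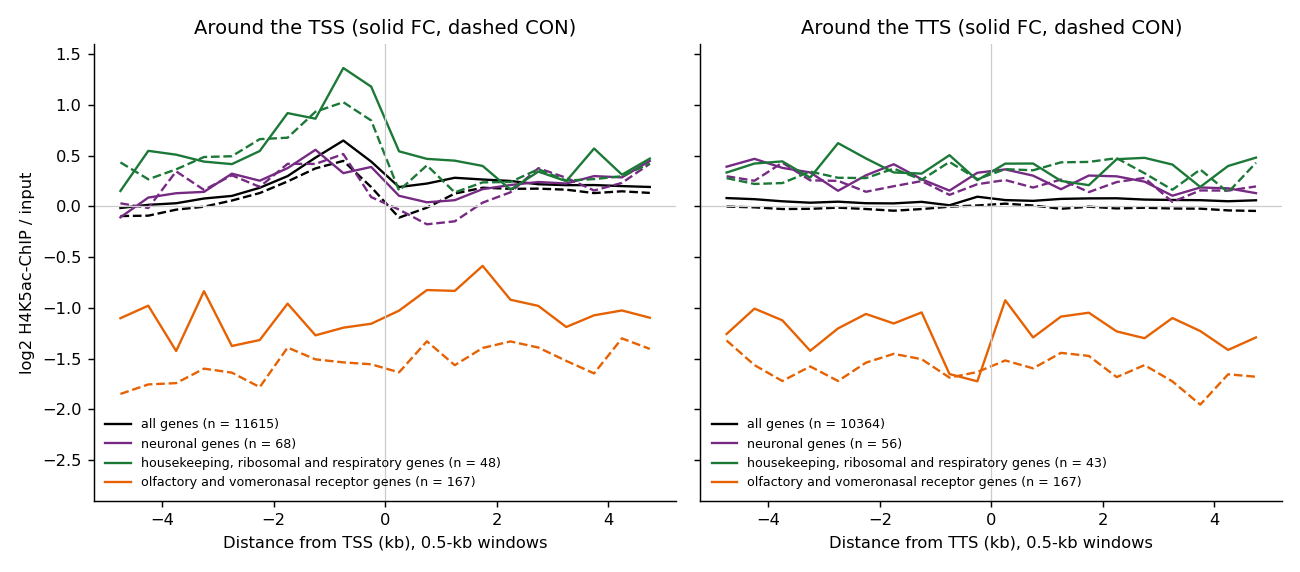
Log2 ratio of H4K5ac-ChIP to input, GC corrected and summed over genes in 0.5-kb windows (y axis), by distance in kb from the TSS (left) and the TTS (right) for all genes and 3 gene groups (solid, FC; dashed, CON; 1 library of each kind per group, no error). Housekeeping, ribosomal and respiratory genes peak at 1.36 and 1.03 in the window 1 to 0.5 kb upstream of the TSS, and receptor genes of the nose stay below 0 throughout.

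Against IgG-IP in place of input, 6877 of 19170 tested gene bodies were enriched and 5283 depleted. Both comparisons use the same H4K5ac-ChIP libraries, so they are not independent. The IgG-IP libraries held 11915483 and 14124513 reads, fewer than any other, and promoter counts fell to 3933 enriched and 1453 depleted.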

How the data were processed

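H4K5ac-ChIP and input chromatin were sequenced by the authors as short colour-space reads and mapped to mm9 with Bioscope, as their methods state. The deposited files hold 1 row for each alignment, with a score that was taken here to be the mapping quality, and the deposited score entered only an alternative setting. Replicates are the 1 FC and 1 CON library of each kind, and the labels give no further samples. Input and H4K5ac-ChIP of a group were assumed to share hippocampal chromatin, so that the training group pairs them. The main test did not use this pairing, which entered only an alternative run with the training group as a replicate block. The study's methods do not state which samples each library holds. Deviations of the paired libraries from their means correlated at 0.006 over gene bodies and 0.022 over promoters, and at 0.205 and 0.104 without GC correction. Genes were the protein-coding genes of the NCBIM37 annotation on chromosomes 1 to 19 and X.

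Here, 1 read was kept per 5′ position and strand, and reads were counted per gene body and per promoter of 2 kb. Counts were divided by the value expected from each library's GC curve over 1-kb tiles at least 10 kb from genes, and scaled to library size as RPM. Features with a mean of at least 10 reads over the 4 libraries were tested with limma 3.58.1 (R 4.3.3; lmFit and eBayes with trend) on log2(RPM + 0.1), H4K5ac-ChIP against input, with Benjamini-Hochberg adjustment over all features tested. Values are therefore understated where reads are few. A call needed an adjusted p below 0.05 and the same sign in FC and CON, except that runs leaving out 1 library asked for the adjusted p alone. The script was tested on simulated data. Depth limits promoters, with a median of 35.8 reads, more than gene bodies, with 295.

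Named genes were the 12 highest and up to 6 lowest features by the weaker of the FC and CON ratios among called features with a mean of at least 50 reads and no input at 3 times its median density or more, up to 2 highest and 2 lowest members of each list, and fixed marker genes, of which a few are not reported here. Genes and gene lists were chosen with earlier results of these data known. Alternatives covered the GC correction, the control, scaling, pseudocount, filters, duplicates, mapping score, voom weights, pairing and leaving out each library. FC and CON ratios of single libraries have no error of their own.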

Additional observations from a re-analysis of the deposited data

Results flagged for a closer look

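At 4 gene bodies the FC and CON ratios pointed in opposite directions, and the difference was not tested, since each group has 1 library of a kind. Olfr180, an olfactory receptor, had a log2 ratio of 0.53 in FC and -0.81 in CON, on 13 and 10 H4K5ac-ChIP reads and 11 and 25 input reads. Olfr267 had 0.49 and -0.85 on 15 and 6 against 15 and 13 reads. Cd14, a receptor of innate immunity, had 0.49 and -0.93 on 48 and 23 against 42 and 29 reads. Vmn2r77, a vomeronasal receptor, had 0.23 and -0.46 on 116 and 111 against 133 and 189 reads. None of the 4 passed the test, and reads at the receptor genes may belong to near-identical copies.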

How the results depend on the processing

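Main counts were 7560 enriched and 5950 depleted gene bodies and 6776 and 3357 promoters. Scaling to tiles far from genes gave 12969 and 3192 gene bodies and 11744 and 1455 promoters, and raised all medians by 0.44 (log2). Without GC correction 3000 gene bodies and 2041 promoters were depleted. Centring on genes of the same GC content gave 4222 enriched promoters. Against IgG-IP 3933 promoters were enriched and 1453 depleted, with no filter 2135 were depleted, and at a mean of at least 50 reads 2447 were enriched and 12 depleted. Leaving out 1 library gave 5789 to 7871 enriched and 5050 to 5923 depleted gene bodies, and 4585 to 7438 enriched and 2110 to 2970 depleted promoters, where the library left without a partner is assumed to vary like the others. The training group as a replicate block gave 7703 and 6005 gene bodies and 6985 and 3524 promoters. Among the named genes the block moved 1 call, adding Cplx1 as depleted (-0.181).

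An uncalled gene counted as turned only where it passed in the other direction. Mean log2 ratios then turned without GC correction at Unc13a (0.37), Wfs1 (0.33), Shank1 (0.17), Neurod2 (0.0408), Csf1r (0.0284) and Slc17a7 (0.0204). They turned with centring at Olfr180 (0.89), Vmn2r77 (0.77) and the Pmch promoter (0.0587), and against IgG-IP at Neurod2 (0.10). Under the scaling to tiles far from genes they turned at Vmn2r77 (0.32), Pcdha11 (0.30), Cplx1 (0.26), Cx3cr1 (0.26), Unc13a (0.24), Bdnf (0.24), Wfs1 (0.21), Shank1 (0.16), Kcnc2 (0.10), Acsbg1 (0.071) and Csf1r (0.025). That scaling moved all gene bodies alike, and the median of all gene bodies was then 0.53, above each of these values. Of the other values of single genes under the alternatives, 2221 for gene bodies and 686 for promoters kept direction and side of the threshold, 114 and 44 lost the call and 38 and 19 gained one. Lists with no promoter left at a mean of at least 50 reads gave no median there. The causes were not tested.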
